A study of Mus musculus with 3 samples.

Results

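Mouse genes named Zfp followed by a number encode zinc finger proteins, most of them DNA-binding factors with arrays of C2H2 fingers. The set described here holds the protein-coding genes with such a name and a mean FPKM (reads scaled to gene length and to library size) of at least 2 over the 3 hippocampal libraries. There were 217 such genes, of 394 protein-coding genes with a Zfp name and 54532 genes in all. The members were chosen by their mean FPKM, so their level is a description and no result. The libraries come from hippocampal RNA of C57BL/6 mice aged 10 months: WT, PS19, and PS19 with the genotype Zbp1+-, written PS19 Zbp1+/- below. PS19 mice express mutant human tau from a transgene under the Prnp promoter and model tau pathology, and PS19 Zbp1+/- animals have the transgene too. Zbp1 is a sensor of nucleic acids in the Z form. Each genotype was 1 library, the labels give neither the sex nor whether animals were pooled, and no difference below has a replicate check.

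In a C2H2 finger, cysteines and histidines hold a zinc ion, and successive fingers read successive bases of DNA. Many Zfp genes also encode a KRAB domain, which recruits the co-repressor Trim28 and the histone methyltransferase Setdb1 to silence retroelements and imprinted loci. These KRAB genes multiplied by local duplication and lie in clusters along the chromosomes. Others have different fingers or roles, such as the CCCH proteins of the Zfp36 family, which bind AU-rich elements in messenger RNA and recruit the CCR4-NOT deadenylase.

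Several library-wide facts touch the results. Genes with at least 1 read numbered 24741 (WT), 25397 (PS19) and 21408 (PS19 Zbp1+/-). FPKM summed over all genes to 277879, 254221 and 309911 in the same order, so PS19 Zbp1+/- had the fewest genes detected and the highest sum. Each library held between 16400328 and 17109734 reads, as recovered from its FPKM values, and the members held 116815 reads (WT), 116420 (PS19) and 115507 (PS19 Zbp1+/-). Zbp1 itself had 5 reads (WT), 91 (PS19) and 0 (PS19 Zbp1+/-), where a count of 0 allows up to 3 reads. All 8 hippocampal neuron markers were detected in each library, and they summed to an FPKM of 754, 679 and 1031 in the same order. Marker levels of other cell types differed too: the 8 choroid plexus markers summed to an FPKM of 3128 (WT), 1915 (PS19) and 10.8 (PS19 Zbp1+/-), the 8 oligodendrocyte markers to 851, 1520.1 and 553, the 8 microglia markers to 159.9, 556 and 170.2, and the 8 astrocyte markers to 422, 1280.3 and 434. No marker of these lists was at 0 reads in any library. Xist had 11062, 13350 and 0 reads and the Y-linked Ddx3y 0, 0 and 711, so both comparisons of PS19 Zbp1+/- also set a library with Y-linked reads against one with Xist reads. In bulk RNA, fewer cells of a type and less RNA per cell cannot be told apart.

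Most members were weakly expressed. Their median FPKM was 4.33 (WT), 4.40 (PS19) and 4.62 (PS19 Zbp1+/-), against medians of 8.64, 8.62 and 8.73 over all 10722 protein-coding genes with a mean FPKM of at least 2. These 10722 genes, which include the members, are called all tested genes below. No member had fewer than 56 reads in any library, and the median member had 366, 368 and 355 reads. At the threshold, Zfp940, Zfp775, Zfp65 and Zfp93 were just inside, with FPKM values of 1.66, 1.86 and 2.71 for Zfp93, in the order WT, PS19 and PS19 Zbp1+/-. Zfp521, Zfp36, Zfp811 and Zfp141 were just outside, and Zfp811 had 2.98, 1.97 and 0.914. Of the 177 Zfp genes below the threshold, 15 had no read in any library and 25 reached 2 FPKM in at least 1 library. The deposited table places 179 members in its zf-C2H2 class and 2 in its ZBTB class, and gives none for 36.

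The gene with the highest level was Zfp365 (ENSMUSG00000037855; GRCm38 chromosome 10, 67886103 to 67912662, minus strand), which encodes a DISC1-binding protein involved in neurite growth. Its FPKM was 66.1 (WT), 47.2 (PS19) and 70.5 (PS19 Zbp1+/-), so the PS19 library was the lowest and WT and PS19 Zbp1+/- lay close together. Zfp706, a small zinc finger protein that promotes exit from stem cell self-renewal, followed at 49.0 (WT), 42.7 (PS19) and 46.2 (PS19 Zbp1+/-). Zfp771 (GRCm38 chromosome 7, 127244274 to 127254803, plus strand) came next, at 28.4 (WT), 18.6 (PS19) and 36.9 (PS19 Zbp1+/-). Zfp385a, a partner of p53, had 21.7, 25.8 and 30.2 in the same order, and Zfp445, a KRAB protein that protects imprinting, had 23.1, 24.8 and 19.3. Zfp428, Zfp106, Zfp598, Zfp692 and Zfp580 completed the first 10, with mean FPKM values of at most 22.3. Of these 10 genes, 6 carry no class in the deposited table: Zfp365, Zfp706, Zfp385a, Zfp428, Zfp106 and Zfp598.

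**Figure D1:**
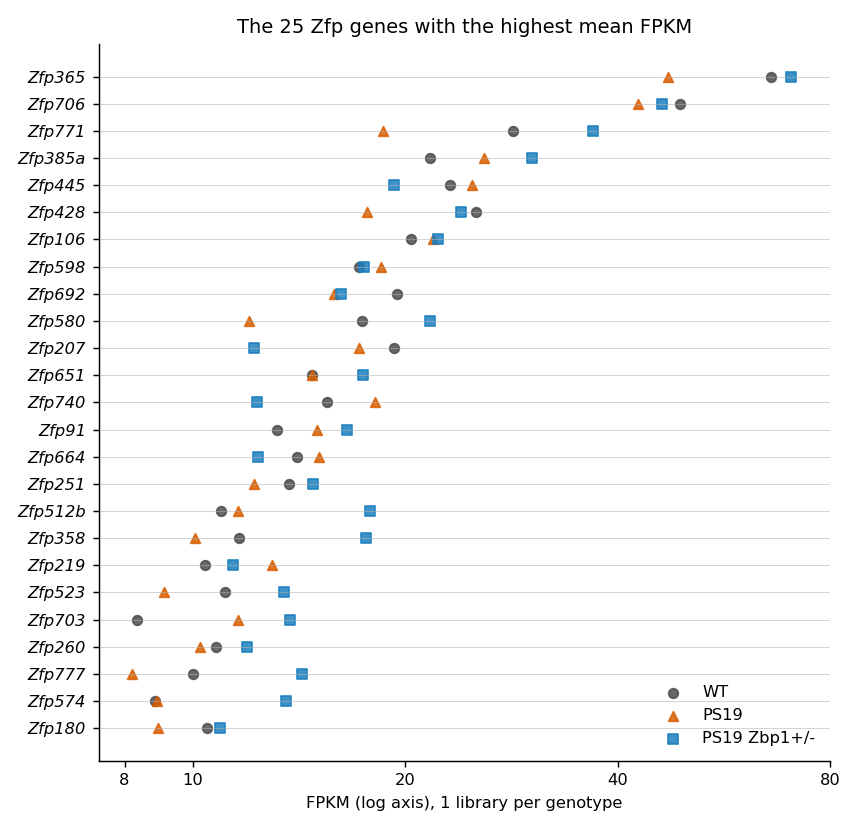
FPKM in each library (log axis) of the 25 Zfp genes with the highest mean, 1 point per library and genotype. Zfp365 lies between 47.2 in PS19 and 70.5 in PS19 Zbp1+/-, and PS19 (triangles) is the lowest library for Zfp365, Zfp771, Zfp428 and Zfp580.

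The first comparison, PS19 against WT, asks how tau transgene expression goes with the level of these genes. The measure is the difference of log2(FPKM + 1), which understates changes of weakly expressed genes, and a gene was counted from a difference of 1 log2 unit upward. None of the 217 members was counted, higher or lower. Of all tested genes, 1.54% were counted as higher and 0.270% as lower. At a smaller threshold of 1.5-fold, applied to the same FPKM + 1 scale throughout, 0 members were higher and 1 was lower, against 4.67% and 2.73% of all tested genes. That split depended on the scaling. With TPM (values rescaled to a common sum) 7 were higher and 0 lower, against 8.69% and 1.86% of all tested genes. After a gene length correction 3 were higher and 0 lower, against 5.71% and 1.05%. The member median was -0.02, against -0.05 over all tested genes, and the members' interquartile range was 0.28 log2 units against 0.38. As log2 read ratios, without a pseudocount, the interquartile ranges were 0.37 and 0.43. Reads per library size gave a ratio whose exact 95% interval lay above 1 for 46 members, below 1 for 46 and across 1 for 125. These counts were made for members only and not under other scalings, so no share of all tested genes stands beside them. Such intervals (Clopper-Pearson, of the read split between 2 libraries) cover counting error only and compare libraries, not genotypes.

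The member past 1.5-fold was Zfp771, with 986, 646 and 1172 reads, in the order WT, PS19 and PS19 Zbp1+/-. It differed by -0.59 log2 units between PS19 and WT, an FPKM ratio of 0.654 (95% interval 0.591 to 0.723). Next among the decreases came Zfp580 at -0.50, Zfp428 at -0.49, Zfp821 at -0.48 and Zfp365 at -0.48. Zfp365 rests on 5932, 4245 and 5804 reads, and its ratio was 0.714 (95% interval 0.686 to 0.743). Zfp580 had FPKM values of 17.4, 12.0 and 21.7, Zfp428 of 25.2, 17.6 and 24.0 and Zfp821 of 6.01, 4.01 and 6.94. For all 5 genes PS19 was the lowest of the 3 libraries, and these 5 also had PS19 furthest below both others. Neuron markers were lowest in PS19 in sum as well, with 5 of 8 lower in PS19 than in WT and 6 of 8 higher in PS19 Zbp1+/- than in PS19. Among them Calb1 had FPKM values of 24.6, 11.6 and 27.3 and Slc17a7 of 206, 172 and 371. The other 3 of the 8 were higher in PS19 than in WT. Prox1, at 8.76, 9.51 and 5.20, and Zbtb20, at 6.42, 11.4 and 5.26, were highest in PS19, and Camk2a had 346, 348 and 458. The part of neuron content in the values of Zfp771, Zfp580, Zfp428, Zfp821 and Zfp365 was not tested. Counting error is small at these depths, but how far 2 WT hippocampi would differ is not known from these libraries.

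The largest increases in PS19 were those of Zfp871 at 0.57, Zfp536 at 0.54, Zfp36l1 at 0.49, Zfp36l2 at 0.44 and Zfp697 at 0.44. Zfp871 had FPKM values of 4.2 (WT), 6.75 (PS19) and 5.07 (PS19 Zbp1+/-), Zfp36l1 of 4.57, 6.85 and 4.37 and Zfp697 of 1.56, 2.47 and 3.87. PS19 was the highest library for the first 4 of these genes, while Zfp697 was higher still in PS19 Zbp1+/-. Zfp276 and Zfp704 also had PS19 above both other libraries, with FPKM values of 3.34, 4.59 and 3.21 and 3.32, 4.44 and 3.37. In all, PS19 was the highest library for 54 members and the lowest for 78, by any amount. The same counts were not made over all tested genes, so these are a description only. By at least 1.5-fold, PS19 was above both others for 0 members and below both for 1, against 3.39% and 1.40% of all tested genes.

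**Figure D2:**
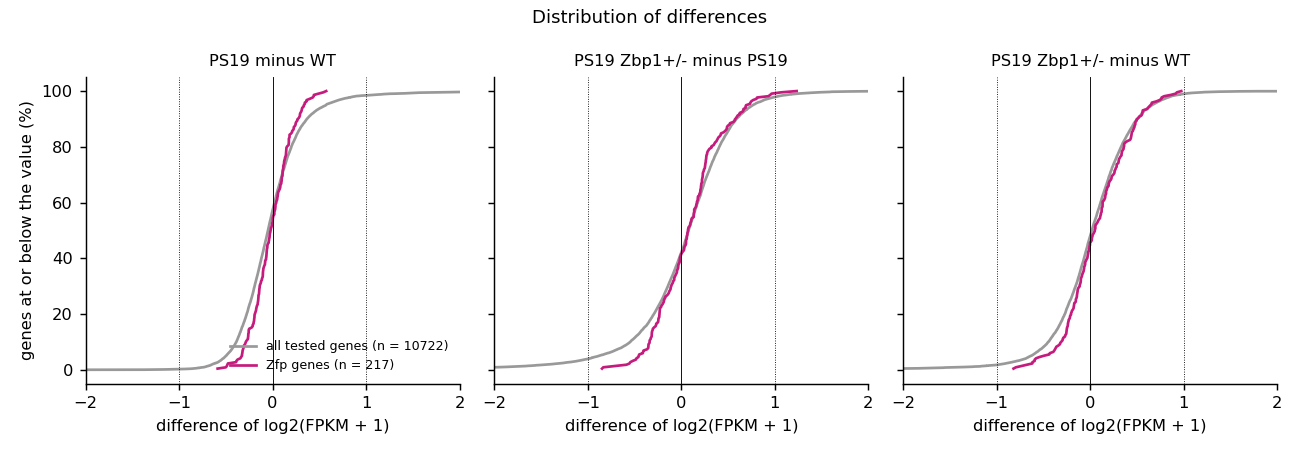
Cumulative share of genes (%) against the difference of log2(FPKM + 1) in the 3 comparisons, for the 217 Zfp genes and for all 10722 tested genes. Dotted lines mark 1 log2 unit, which no Zfp gene passes between PS19 and WT and 2 pass between PS19 Zbp1+/- and PS19.

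The second comparison, PS19 Zbp1+/- against PS19, sets the library labelled Zbp1+- against the tau model without that genotype. The label gives 1 intact Zbp1 allele, yet this library had 0 Zbp1 reads against 91 in PS19, so the comparison is named by its label and not as a measured dosage. It shares the PS19 library with the first comparison. Here 2 members were at least 1 log2 unit higher, Zfp575 and Zfp341, and 0 were lower, against 2.13% and 3.94% of all tested genes. At 1.5-fold, 21 members (9.68%) were higher and 4 lower, against 10.1% and 9.06% of all tested genes. The balance turned under other scalings: 8 were higher and 33 lower with TPM, against 4.40% and 20.8% of all tested genes, and 8 were higher and 12 lower when scaled to total reads, against 5.19% and 14.0%. The member median was 0.07 and that of all tested genes 0.08. In FPKM, the share of members higher at 1.5-fold was near the background, and the share lower was 1.84%.

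Zfp575 (ENSMUSG00000066721; GRCm38 chromosome 7, 24583838 to 24587641, minus strand) was at 3.28 (WT), 2.57 (PS19) and 7.4 (PS19 Zbp1+/-) FPKM, from 155, 122 and 321 reads. It was 1.23 log2 units above PS19, a ratio of 2.87 (95% interval 2.33 to 3.57). Zfp341 (GRCm38 chromosome 2, 154613297 to 154646821, plus strand), which in humans activates the STAT3 gene, had 2.41 (WT), 2.07 (PS19) and 5.42 (PS19 Zbp1+/-), a difference of 1.06 and a ratio of 2.62 (95% interval 2.11 to 3.28). WT and PS19 lay close together for both genes and PS19 Zbp1+/- stood alone above them. After subtracting the median difference of genes of like GC content, an alternative chosen after seeing the data, neither reached 1 log2 unit, at 0.99 for Zfp575 and 0.71 for Zfp341. Stretches over 10.9% of the Zfp575 transcript matched other genes at 95% identity or more. Zfp13 at 0.96, Zfp771 at 0.95 and Zfp628 at 0.93 followed. Zfp13 had FPKM values of 7.19, 6.02 and 12.7 and Zfp628 of 3.75, 3.23 and 7.07, again with PS19 Zbp1+/- alone on the high side, whereas Zfp771 was low in PS19 and highest in PS19 Zbp1+/-.

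The lowest values in this comparison were those of Zfp946 at -0.85, Zfp536 at -0.84, Zfp932 at -0.72, Zfp760 at -0.59 and Zfp280c at -0.55. Zfp946 had FPKM values of 3.82 (WT), 4.21 (PS19) and 1.89 (PS19 Zbp1+/-), with a ratio of 0.45 (95% interval 0.355 to 0.567). Zfp932 had 8.1, 7.46 and 4.15, and Zfp760 had 2.49, 2.87 and 1.58. For Zfp946, Zfp932 and Zfp760 the WT and PS19 libraries lay together and PS19 Zbp1+/- lay below them. Zfp280c, on chromosome X, had 4.84, 6.18 and 3.89, so that PS19 was above both others. After the GC adjustment, Zfp536 was at -1.08, past 1 log2 unit. With no pseudocount, 5 members passed 1 log2 unit upward in this comparison and 2 downward, against 3.08% and 5.64% of all tested genes.

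Against WT, PS19 Zbp1+/- had 0 members at least 1 log2 unit higher and 0 lower, with 1.01% and 1.79% of all tested genes. At 1.5-fold, 15 members were higher and 8 lower, against 6.81% and 6.04%. With TPM 10 were higher and 14 lower, against 4.80% and 12.6% of all tested genes, and with scaling to total reads 8 were higher and 11 lower, against 3.86% and 9.82%. After the GC adjustment 10 were higher and 1 lower, against 4.64% and 6.36%. The median was 0.05 over the members and 0.02 over all tested genes. Zfp575 at 0.97, Zfp697 at 0.93, Zfp341 at 0.91, Zfp526 at 0.86 and Zfp423 at 0.79 were the highest. Zfp932 at -0.82, Zfp950 at -0.79, Zfp946 at -0.74, Zfp563 at -0.68 and Zfp938 at -0.62 were the lowest. Zfp697 and Zfp526 were lowest in WT, and Zfp526 had FPKM values of 2.3, 2.72 and 4.99. Zfp950, Zfp563 and Zfp938 were lower in PS19 than in WT and lower again in PS19 Zbp1+/-. Their FPKM values were 5.35, 3.85 and 2.66 for Zfp950, 3.72, 2.74 and 1.95 for Zfp563 and 8.47, 6.63 and 5.17 for Zfp938. PS19 Zbp1+/- was above both other libraries by at least 1.5-fold for 9 members and below both for 2, which were 4.15% and 0.922% of the members, against 4.40% and 3.90% of all tested genes. After Zfp946 and Zfp932, the members furthest below both other libraries were Zfp738 at 3.03, 2.73 and 1.67, Zfp207, described with the RNA-related genes, and Zfp758 at 3.61, 3.23 and 2.08.

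The members with high and with low values in PS19 Zbp1+/- differed in base composition, which the choice of members did not use. GC content was that of the gene's longest transcript in GENCODE M21 and was known for all 217 members. The members ranged from 33.2% to 68.7% GC with a median of 46.3%, against a median of 50.2% over all tested genes. Of the 21 members past 1.5-fold upward from PS19 to PS19 Zbp1+/-, 18 had a GC content above the member median, and the median of the 21 was 56.8%. All 15 members past 1.5-fold higher than WT lay above the member median, and all 8 past 1.5-fold lower lay below it, with GC contents of 35.8% to 41.7%. Zfp575 was at 56.8%, Zfp341 at 58.6%, Zfp628 at 63.5% and Zfp771 at 68.7%. Zfp946 was at 36.9%, Zfp932 at 37.3%, Zfp950 at 35.8% and Zfp938 at 36.7%. Zfp536, lower in PS19 Zbp1+/- than in PS19 at a GC content of 56.8%, was the exception among the 4 lower members of that comparison.

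Split by GC content into groups of 73, 72 and 72 members, the median difference between PS19 Zbp1+/- and PS19 was -0.14 in the GC-poor group, 0.12 in the middle group and 0.26 in the GC-rich group. All tested genes in the same GC ranges had medians of -0.13, 0.02 and 0.22. Against WT, the 3 groups had -0.17, 0.05 and 0.31, and all tested genes -0.19, -0.03 and 0.14. Between PS19 and WT the groups had -0.06, -0.01 and 0.02. Across the 217 members, GC content and the difference had a Spearman rho of 0.56 for PS19 Zbp1+/- against PS19, 0.63 against WT and 0.12 for PS19 against WT. Over 10711 tested genes with a known GC content, rho was 0.32, 0.35 and -0.04. For gene length in place of GC content, in the same order, rho was -0.08, 0.06 and 0.27 over the members. It was -0.03, 0.23 and 0.37 over all 10722 tested genes, so PS19 against WT went with length more than with GC content. These correlations are across genes that share the same 2 libraries, so genes are not independent replicates. The relation with GC content was seen in both comparisons that hold PS19 Zbp1+/- and in tested genes at large. Its cause was not tested.

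**Figure D3:**
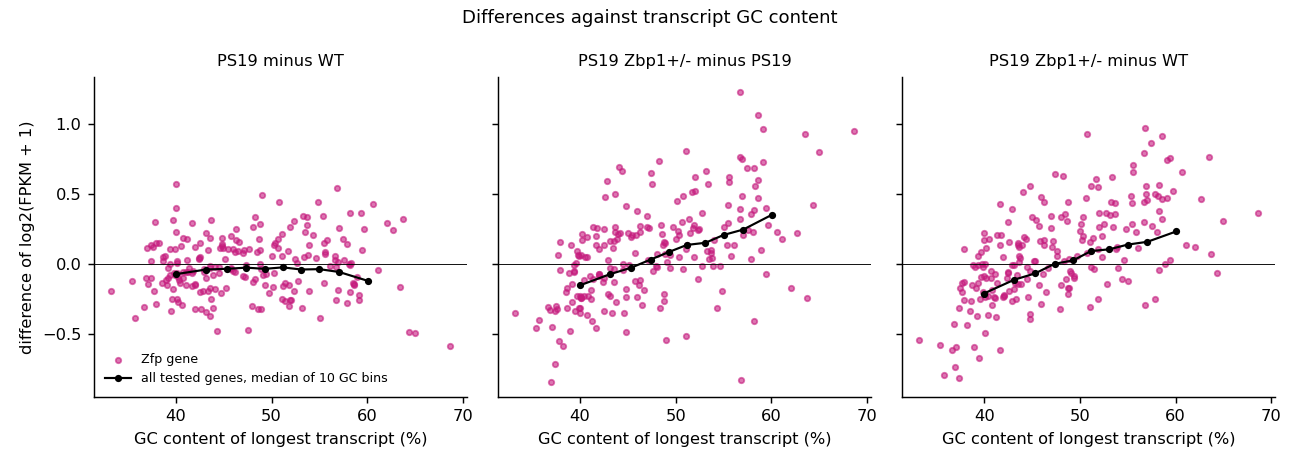
Difference of log2(FPKM + 1) against GC content of the longest transcript (%), 1 point per Zfp gene, with the median of all tested genes in 10 GC bins (black). The points slope upward in the 2 comparisons with PS19 Zbp1+/-, with rho of 0.56 and 0.63, and not between PS19 and WT, with rho of 0.12.

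Promoter sequences are shown for the 2 highest and the 2 lowest members of PS19 Zbp1+/- against PS19 with a window in the RefSeq table (GRCm38.p6) that overlaps the deposited gene by at most 30 bases, to set them beside this split. Each is the 250 bases before the RefSeq start, 5′ to 3′, with CpG dinucleotides in capitals. The windows are chr17:23599488-23599737 (minus strand) for Zfp13, chr7:4914967-4915216 (plus) for Zfp628, chr17:22423952-22424201 (plus) for Zfp946 and chr5:109996277-109996526 (plus) for Zfp932.
Zfp13: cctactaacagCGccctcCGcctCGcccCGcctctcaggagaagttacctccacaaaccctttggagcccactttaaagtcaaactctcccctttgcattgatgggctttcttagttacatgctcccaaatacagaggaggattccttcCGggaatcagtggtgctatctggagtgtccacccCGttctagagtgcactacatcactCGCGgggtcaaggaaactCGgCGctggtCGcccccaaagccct
Zfp628: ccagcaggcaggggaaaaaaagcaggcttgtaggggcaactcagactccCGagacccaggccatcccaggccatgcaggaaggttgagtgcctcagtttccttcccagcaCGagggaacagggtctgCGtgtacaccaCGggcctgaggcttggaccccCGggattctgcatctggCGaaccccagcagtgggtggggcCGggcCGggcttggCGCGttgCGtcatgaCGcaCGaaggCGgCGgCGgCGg
Zfp946: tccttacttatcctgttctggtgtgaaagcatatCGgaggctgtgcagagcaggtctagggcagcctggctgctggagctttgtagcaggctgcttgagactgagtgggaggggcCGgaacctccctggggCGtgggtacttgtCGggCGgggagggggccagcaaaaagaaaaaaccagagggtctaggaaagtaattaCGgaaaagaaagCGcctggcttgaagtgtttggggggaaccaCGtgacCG
Zfp932: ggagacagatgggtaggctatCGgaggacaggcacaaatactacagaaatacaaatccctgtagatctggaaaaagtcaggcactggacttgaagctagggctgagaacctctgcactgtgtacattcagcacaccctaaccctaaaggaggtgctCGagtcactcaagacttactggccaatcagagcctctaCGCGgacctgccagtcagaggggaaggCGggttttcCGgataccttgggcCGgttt

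The Zfp628 window held 17 CpG dinucleotides, that of Zfp13 held 11, that of Zfp946 held 9 and that of Zfp932 held 7. A window near the deposited start was found for 173 members, with a median of 13 CpG, against 6 over all 32851 windows of the table. Those windows are not limited to expressed genes and can hold several starts of a gene, so they are no like-for-like set. Some member windows, such as that of Zfp771, lay wholly within the deposited gene. The GC box GGGCGG, on either strand, was present in 43.9% of the member windows and in 32.7% of all windows, and of the 4 windows shown it was found in that of Zfp946. TATAAA, on either strand, was present in 6.94% of member windows and 12.4% of all windows, and in none of the 4 shown. Promoter GC content followed the difference less closely than transcript GC content, with a rho of 0.20 over 173 members for PS19 Zbp1+/- against PS19 and 0.22 against WT. A match to these letters is a description and not a shown binding site.

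By role, the messenger RNA decay proteins Zfp36l1 and Zfp36l2 were both among the 5 members with the largest increase in PS19. Zfp36l2 had FPKM values of 8.28 (WT), 11.6 (PS19) and 10.0 (PS19 Zbp1+/-), and Zfp36l1 of 4.57 (WT), 6.85 (PS19) and 4.37 (PS19 Zbp1+/-). Their ratios of PS19 to WT were 1.4 (95% interval 1.25 to 1.57) and 1.5 (95% interval 1.27 to 1.77). In PS19 Zbp1+/-, Zfp36l1 differed from WT by less than counting error, at a ratio of 0.956 (95% interval 0.79 to 1.16), while Zfp36l2 was above WT at a ratio of 1.21 (95% interval 1.07 to 1.37). Across the alternatives the log2 difference from WT ran from -0.21 to -0.03 for Zfp36l1 and from 0.11 to 0.27 for Zfp36l2. The intervals were not made under other scalings, so this contrast holds for FPKM only. Zfp36 itself (tristetraprolin), which missed the threshold of 2 with a mean FPKM of 1.98, had 1.77, 3.12 and 1.06 from 106, 187 and 58 reads, so all 3 genes had their highest value in PS19. Zfp36l3, also on the list, was below the threshold. None of the 11 CCR4-NOT genes with a mean FPKM of at least 2 passed 1.5-fold in any comparison, and their median difference was -0.05 between PS19 and WT and 0.02 between PS19 Zbp1+/- and PS19. Compared with WT, 7 of 8 microglial and 8 of 8 astrocyte markers were also higher in PS19, and all 8 of each list were lower in PS19 Zbp1+/- than in PS19. Their part in the Zfp36 family values was not tested.

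Among the KRAB proteins with known targets, 3 of 6 listed genes were members. Zfp445 had FPKM values of 23.1 (WT), 24.8 (PS19) and 19.3 (PS19 Zbp1+/-), with ratios of 1.07 (95% interval 1.02 to 1.13) for PS19 over WT and 0.775 (95% interval 0.734 to 0.818) for PS19 Zbp1+/- over PS19. Zfp809, which silences retroviruses through their proline primer binding site, was level at 3.23, 3.32 and 3.29. Zfp932, which with its paralog Gm15446 binds endogenous retroviruses, had 457, 422 and 215 reads, a ratio of 0.557 (95% interval 0.47 to 0.657) for PS19 Zbp1+/- over PS19. Gm15446 matched 70.2% of the Zfp932 transcript at 95% identity or more and had 348, 397 and 272 reads, so the split of reads between these genes is uncertain. Both had their lowest value in PS19 Zbp1+/-. Zfp57, Zfp568 and Zfp42 were below the threshold, and Zfp42 had 0 reads in all 3 libraries. Zfp57 had FPKM values of 2.01, 1.41 and 2.20, with a ratio of 1.57 (95% interval 1.19 to 2.07) for PS19 Zbp1+/- over PS19. That ratio was 1.31 (95% interval 0.964 to 1.79) for Zfp568. Of the 6 listed genes, 2 were thus higher in PS19 Zbp1+/- than in PS19 and 3 lower.

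The co-repressor machinery that KRAB proteins use was measured with 17 genes, 16 of them at a mean FPKM of at least 2. Trim28 had FPKM values of 41.0 (WT), 35.8 (PS19) and 47.7 (PS19 Zbp1+/-), Setdb1 of 6.89, 7.13 and 7.0 and the heterochromatin protein gene Cbx5 of 22.0, 22.6 and 25.2. Between PS19 and WT 0 of the 16 passed 1.5-fold. Between PS19 Zbp1+/- and PS19, 2 of the 16 (12.5%) were higher by 1.5-fold and 0 lower, near the 10.1% of all tested genes that were higher: Chd3, a chromatin remodeller of the NuRD complex, at a ratio of 2.01 (95% interval 1.97 to 2.07), and Cbx3 at 1.68 (95% interval 1.53 to 1.84). The HUSH complex genes Mphosph8, Fam208a and Pphln1, which act with Setdb1 on retroelements, differed by -0.09, -0.37 and -0.29. The median of the 16 was 0.02 in PS19 against WT and -0.04 in PS19 Zbp1+/- against PS19.

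Of 14 genes listed for neural development or disorders, 10 were members, and 8 of these were higher in PS19 than in WT by any amount, with a median difference of 0.23. Of all 14 listed genes, 9 were higher and 5 lower. Over all tested genes, 42.8% were higher by any amount, and over the 217 members 47.5%. None of the 10 passed 1.5-fold on the FPKM + 1 scale there. Zfp536, a repressor of neuronal differentiation, had FPKM values of 2.7 (WT), 4.39 (PS19) and 2.02 (PS19 Zbp1+/-) from 430, 700 and 295 reads. Its ratio was 1.62 (95% interval 1.44 to 1.84) for PS19 over WT and 0.46 (95% interval 0.40 to 0.528) for PS19 Zbp1+/- over PS19, so PS19 stood above both. All 8 oligodendrocyte markers were in the same order, PS19 highest and PS19 Zbp1+/- lowest, and their part in the Zfp536 values was not tested. Zfp335, mutated in human microcephaly, was lowest in WT and highest in PS19 Zbp1+/-, at 4.03, 5.48 and 7.53. Zfp423, a transcription factor of cerebellar development, was level between WT and PS19 and higher in PS19 Zbp1+/-, at 4.07, 4.16 and 7.77, with a ratio of 1.87 (95% interval 1.65 to 2.12).

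The schizophrenia-associated Zfp804a had FPKM values of 3.94, 4.68 and 4.98, Zfp462 of 4.3, 5.37 and 5.69 and Zfp292 of 3.6, 4.02 and 4.19. All 3 were lowest in WT, with intervals of the PS19 Zbp1+/- to PS19 ratio that spanned 1. Zfp609, a partner of the cohesin loader Nipbl, had 5.51, 7.05 and 6.47, and Zfp219, a partner of Sox9, had 10.4, 13.0 and 11.4, with PS19 highest for both. Zfp503, known from striatal development, was near the threshold at 2.43, 2.21 and 2.43. The intervals of both its PS19 to WT and its PS19 Zbp1+/- to PS19 ratio spanned 1. Zfp365, described above, is also on this list and had the largest decrease in PS19 among its 10 members. Zfp804b, Zfp711, Zfp407 and Zfp521 were below the threshold. Between PS19 and WT they differed by -0.08, -0.14, -0.01 and 0.06, in that order. Zfp24, needed for oligodendrocyte maturation and myelination, had 6.31 (WT), 7.3 (PS19) and 5.43 (PS19 Zbp1+/-), with ratios of 1.16 (95% interval 1.04 to 1.28) and 0.744 (95% interval 0.666 to 0.831). All 8 oligodendrocyte markers shared this order, and their part was not tested. The log2 differences of Zfp24, 0.18 and -0.37, were smaller than those of the myelin gene Mbp, 0.83 and -1.38. Zfp488, the other oligodendrocyte gene, was below the threshold.

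**Figure D4:**
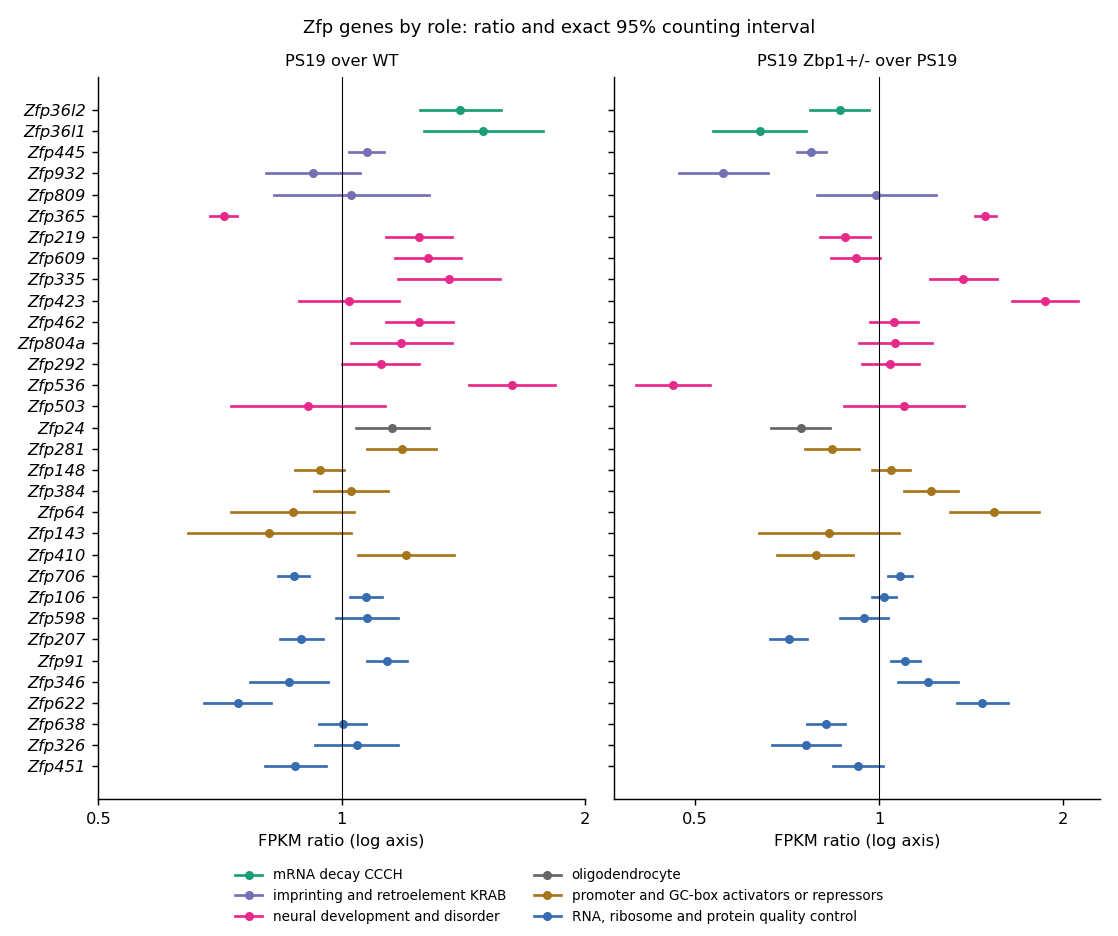
Ratio of FPKM (log axis) with its exact 95% counting interval for the members of the role lists, PS19 over WT on the left and PS19 Zbp1+/- over PS19 on the right, coloured by list. Zfp536 and Zfp36l1 lie above 1 on the left and below 1 on the right, and Zfp365 and Zfp622 lie below 1 on the left and above it on the right.

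Of 7 listed factors that act at promoters, 6 were members. Zfp148 and Zfp281, which bind GC-rich promoter elements, had FPKM values of 9.34, 8.77 and 9.18 and 8.9, 10.6 and 8.84. Zfp384 had 6.39, 6.56 and 7.99, and Zfp143, which occupies promoters genome-wide, had 2.79, 2.27 and 1.89. Zfp64 was the only one of the 6 with a difference of at least 0.4 log2 units in any comparison, at 0.47 between PS19 Zbp1+/- and PS19. Zfp410, an activator of Chd4, had 2.01, 2.41 and 1.9, and Chd4 had 26.4, 28.4 and 27.2. None of the 6 passed 1.5-fold in any of the 3 comparisons, and Zfp217 was below the threshold.

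All 10 genes listed for RNA, ribosome and protein quality control were members. Zfp598, a ubiquitin ligase that recognises collided ribosomes, was level in FPKM at 17.2 (WT), 18.5 (PS19) and 17.5 (PS19 Zbp1+/-). Its ratios of 1.08 (95% interval 0.985 to 1.18) and 0.946 (95% interval 0.864 to 1.03) both spanned 1. Across the alternatives its log2 difference ran from 0.10 to 0.23 between PS19 and WT. Between PS19 Zbp1+/- and PS19 it ran from -0.43 to -0.08, so the level reading depends on the scaling. Zfp622, a factor of large ribosomal subunit maturation, was low in PS19 at 8.3, 6.17 and 9.12, with a ratio of 0.744 (95% interval 0.676 to 0.818) to WT. Zfp207, which chaperones the checkpoint protein Bub3, was lower in PS19 Zbp1+/- at 19.3, 17.2 and 12.2 and was the only one of the 10 past 1.5-fold in any comparison, at -0.62 against WT. Zfp346, a nuclear protein that binds double-stranded RNA, had 9.53, 8.21 and 9.9. Its PS19 value was the lowest in FPKM, with ratios of 0.861 (95% interval 0.771 to 0.963) to WT and 1.2 (95% interval 1.08 to 1.35) for PS19 Zbp1+/- over PS19. With TPM the difference between PS19 Zbp1+/- and PS19 was -0.02, so this order depends on the scaling. Zfp638, which silences unintegrated retroviral DNA through HUSH, was level between WT and PS19 and lower in PS19 Zbp1+/-, at 6.5, 6.52 and 5.35. Zfp326, of a complex that links splicing to transcript elongation, had 4.42, 4.61 and 3.5, and the SUMO ligase Zfp451 had 4.02, 3.52 and 3.26. The ubiquitin ligase Zfp91 was lowest in WT at 13.2, 15.0 and 16.5, and the RNA-binding Zfp106, needed for motor neuron maintenance, had 20.4, 21.9 and 22.3.

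The members were spread unevenly over the genome, with 56 of 217 on chromosome 7 and 24 on chromosome 17. With neighbours joined across gaps of at most 200 kb, 16 clusters held at least 3 members and 76 members in all. The largest, on chromosome 7 (29768552 to 30169750), held 12 members from Zfp84 to Zfp146. Its differences between PS19 Zbp1+/- and PS19 ran from -0.49 to 0.74, so neighbours did not share 1 direction. A cluster of 7 on the same chromosome (24081924 to 24587641), from Zfp180 to Zfp575, was higher in PS19 Zbp1+/- for all 7 members, with a median of 0.36 and a median GC content of 51.4%. The lowest of the 7 was 0.07, and the cluster counts were not repeated under other scalings. By any amount, 57.8% of all tested genes, 58.5% of the 217 members and 67.0% of tested genes on chromosome 7 were higher in this comparison. The 3 members of a chromosome 17 cluster (22337989 to 22456689), Zfp944, Zfp758 and Zfp946, were lower for all 3, with a median of -0.46 and a median GC content of 36.9%. On chromosome 5 (143235163 to 143293623), Zfp12, Zfp316 and Zfp853 were higher for all 3, at a median of 0.60 and a GC content of 58.2%. GC-poor clusters did not all lie low: a chromosome 13 cluster (67471513 to 67729173) from Zfp874b to Zfp65, at a median GC content of 39.9%, had a median of 0.09 with 3 of 4 members positive. A chromosome 17 cluster (21567008 to 21725636) of Zfp948, Zfp983 and Zfp760, at 39.8%, had a median of 0.06 with 2 of 3 positive. The 8 members of another chromosome 17 cluster (32771236 to 33358878), from Zfp871 to Zfp81, ran from -0.34 to 0.57 between PS19 and WT.

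**Figure D5:**
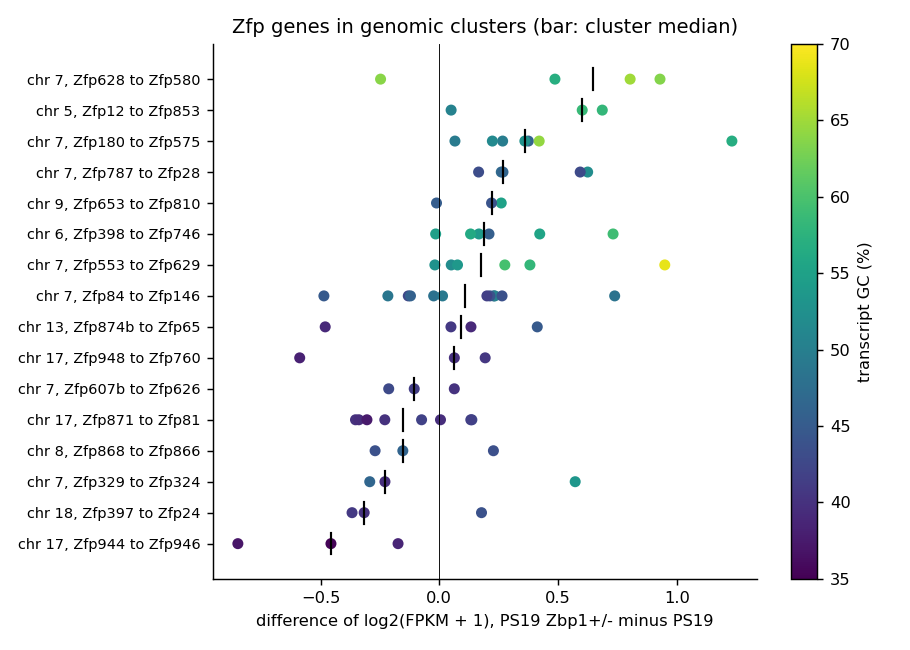
Difference of log2(FPKM + 1) between PS19 Zbp1+/- and PS19 for the 76 members in 16 genomic clusters, 1 point per gene, coloured by transcript GC content (%), with a bar at each cluster's median. The cluster from Zfp944 to Zfp946 is lowest at -0.46 and GC-poor, and the cluster from Zfp12 to Zfp853 has a median of 0.60 and a GC content of 58.2%.

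By chromosome, the 56 members on chromosome 7 had a median difference of 0.22 between PS19 Zbp1+/- and PS19, and all 783 tested genes there had 0.17. The 24 members on chromosome 17 had -0.13, against 0.09 for the 509 tested genes there. Their median GC contents were 39.9% and 53.0%, and all tested genes in the GC range of the GC-poor members had a median of -0.13. The part of GC content in this contrast was not tested. Near-identical copies can exchange reads within such clusters. Over at least 200 bases at 95% identity or more, 22 members matched another gene, and for 10 of them the matches covered over 20% of the transcript. Zfp955a and Zfp955b matched each other over 100% and 61.5% of their transcripts, and Zfp28 matched Gm3203 over 51.1%, so the values of these genes are uncertain.

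For comparison, the 99 other tested genes of the deposited zf-C2H2 class had median differences of 0.01, 0.05 and 0.07 in the 3 comparisons, in the order used above. The 30 Zbtb genes had 0.02, 0.14 and 0.02, and the 15 Zkscan or Zscan genes had 0.04, 0.10 and 0.05. Among the 99, 1 gene was at least 1 log2 unit higher in PS19 than in WT, and between PS19 Zbp1+/- and PS19 3 were higher and 3 lower. The 11 Klf genes had 0.14, -0.14 and 0.06, with an interquartile range of 0.76 log2 units between PS19 Zbp1+/- and PS19 against 0.44 for the members. Whether any of these families differed from the Zfp genes was not tested, since each genotype is 1 library.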

How the data were processed

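The authors deposited 1 table of FPKM values with 54532 genes and 1 column per library, all 3 used here. The unit is taken from the table's name and its values. Per the submitters' processing notes, Trim Galore 0.6.5, STAR 2.5.3a, featureCounts 2.0.4 and the build mm39 were named, with no role given. The table's gene positions, printed as they stand, matched GENCODE M21 (GRCm38) for 53499 of the 54409 IDs it also holds and for 209 of 217 members. Strandedness is not given in the sources used here. FPKM times gene length was a whole multiple of 1 step for 100% of values in each library (tolerance 0.01 reads), which gave back whole reads. Implied library sizes were 17253479 (WT), 17287957 (PS19) and 15826984 (PS19 Zbp1+/-). Recovered reads summed to 16746085, 16400328 and 17109734 in that order. FPKM, ratios and intervals rest on the implied sizes, so ratios of PS19 Zbp1+/- over either other library are lower when scaled to total reads.

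Differences are of log2(FPKM + 1), with no p-value, since each genotype is 1 library. Members, lists, comparisons and alternatives were chosen with earlier results of these data known. Named were the 10 members with the highest mean, the 5 largest increases and decreases in each comparison, up to 5 with PS19 or PS19 Zbp1+/- above or below both others, 4 on either side of the threshold, and every member of the role lists. Genes of clusters, near-identical copies and partner lists named beyond this were chosen after their values were seen. Protein sequences were not used here, so the planned counts of fingers and KRAB boxes were not made. Alternatives were pseudocounts, filters, scalings, read ratios, thresholds and a gene length correction; GC correction, a minimum of 100 reads and leaving out chromosome X were added after seeing the data. On simulated data for PS19 against WT, reads were recovered for 100% of 54532 genes, all 200 changed genes were called, and 3 of 10522 unchanged genes were called. The planted changes were 4-fold, in genes with a mean FPKM of at least 5, with counting noise only. This checks the code and gives no rate of detection or of false calls for these libraries. Tools were scipy 1.17.1, numpy 2.4.6, pandas 2.3.3, BLAST 2.17.0 and matplotlib 3.10.9 under Python 3.11.15.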

Additional observations from a re-analysis of the deposited data

How the results depend on the processing

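No paired analysis was possible because each genotype is 1 library. Rescaling to TPM moved the median of all tested genes to 0.07 for PS19 against WT, -0.19 for PS19 Zbp1+/- against PS19 and -0.13 for PS19 Zbp1+/- against WT; the member median differed from those by at most 0.04. It differed from the median of all tested genes by 0.09 at a mean FPKM of at least 5 in both comparisons with WT, and by 0.09 with GC correction for PS19 Zbp1+/- against WT. The member median for PS19 against WT (-0.02) was 0.0266 with median ratio scaling, 0.0976 with TPM and 0.0384 with GC correction. For PS19 Zbp1+/- against PS19 (0.07) it was 0.1469 at a mean FPKM of at least 5, -0.0009 with no filter, 0.0015 with median ratio scaling, -0.185 with TPM, -0.0818 with total read scaling and 0.0037 with length correction. For PS19 Zbp1+/- against WT (0.05) it was -0.0947 with TPM, -0.087 with total read scaling, 0.12 at a mean FPKM of at least 5 and 0.09 with GC correction.

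Counts of members past the threshold were small and moved accordingly. At 1.5-fold, 1 member was lower in PS19 than in WT. In PS19 Zbp1+/- against PS19, the 2 higher members became 4 with a pseudocount of 0.1 or 0.5, 5 by read ratio, 21 at 1.5-fold, 1 with median ratio scaling, total read scaling or length correction, and 0 at a mean of at least 5, with GC correction or at 2 log2 units. The count of lower members, 0, became 2 with a pseudocount of 0.1 or by read ratio, 4 with TPM or at 1.5-fold, and 1 with a mean of at least 1, no filter or GC correction. At 1 log2 unit in this comparison, the share of all tested genes that was higher ran from 1.07% (GC correction) to 3.08% (read ratio). The share that was lower ran from 2.36% (at least 100 reads) to 7.98% (TPM). In PS19 Zbp1+/- against WT, the 0 higher members became 4 with a pseudocount of 0.1 or by read ratio, 3 with 0.5, 1 with TPM and 15 at 1.5-fold, and the 0 lower became 2 at a mean of at least 1, with no filter or by read ratio, 3 with TPM and 8 at 1.5-fold. There the share of all tested genes at 1 log2 unit ran from 0.550% (total read scaling) to 1.75% (read ratio) higher. It ran from 0.615% (at least 100 reads) to 3.56% (TPM) lower. Of 177 differences of named members, 140 had the same sign in each alternative that could be run, including all 55 of at least 0.4 log2 units. Filters leave a gene's own value unchanged, and other pseudocounts or read ratios cannot turn its sign. Only the scalings and the length and GC corrections could do so, mostly for small differences. The agreement among the larger differences was thus largely set by their size and is no check of them. Apart from constructions that change the genes or threshold, the cause was not tested.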

Other observations

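Genes with a Zfp name outside the protein-coding set entered no comparison above. At a mean FPKM of at least 2 there were Zfp422-ps, a pseudogene with 102 reads (WT), 71 (PS19) and 110 (PS19 Zbp1+/-), and Zfp652os, an antisense gene with 37, 19 and 30 reads in that order. Zfp422-ps matches 22.2% of the Zfp422 transcript at 95% identity or more, so the split of reads between them is uncertain.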
